A study of Mus musculus with 2 samples.

Results

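Genes that respond to glucocorticoid hormones, together with the metallothioneins, were followed in the WAT of PeriA Tg and WT mice. The 10 genes were *Hsd11b1*, *Fkbp5*, *Tsc22d3*, *Sgk1*, *Zbtb16*, *Mt1*, *Mt2*, *Ddit4*, *Cdkn1a* and *Errfi1*, and they were chosen by name. All 10 were found on the array, with 20 probe sets annotated to one of these symbols alone, out of 45037 probe sets and 18193 genes. The RNA came from perigonadal WAT of 30-week-old female C57BL/6 mice kept at room temperature on a HFD. The Tg mice were heterozygous for human PeriA driven by the adipocyte specific aP2 promoter/enhancer, and the WT mice were their littermates without the transgene. Mice of both genotypes were fasted overnight and anesthetized with isoflurane before the tissue was taken. RNA of 3 mice per genotype was pooled, and each pool was hybridized to 1 Affymetrix array, so that there are no replicates and no difference below was tested. The transgene and mouse perilipin were not analysed here.

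Glucocorticoids enter cells and bind the glucocorticoid receptor, which is held by heat shock protein 90 and its co-chaperones until hormone arrives, and which then moves to the nucleus and binds DNA. In adipocytes these hormones act on lipolysis, lipid storage and differentiation, and their concentration in blood increases with fasting and with stress. The amount of active hormone inside fat also depends on the enzyme encoded by *Hsd11b1*, which regenerates it from an inactive form. Metallothioneins are small cysteine-rich proteins that bind zinc and copper. Their genes are induced by metals through metal response elements (MREs) and the factor MTF1, and by glucocorticoids, fasting and oxidative stress.

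The DNA just upstream of 3 of these genes is shown because it holds the response elements named above. For 9 of the 10 genes the RefSeq table (GRCm38.p6) held at least 1 window of 250 bases before an annotated transcript start, 18 windows in all. Both strands were searched for the MRE core, written TGCACNC or TGCGCNC, and for the glucocorticoid response element, written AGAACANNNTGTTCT, in which N is any base. In the sequences, printed 5′ to 3′, capitals mark these matches.
*Mt2*, chr8:94172368-94172617, + strand: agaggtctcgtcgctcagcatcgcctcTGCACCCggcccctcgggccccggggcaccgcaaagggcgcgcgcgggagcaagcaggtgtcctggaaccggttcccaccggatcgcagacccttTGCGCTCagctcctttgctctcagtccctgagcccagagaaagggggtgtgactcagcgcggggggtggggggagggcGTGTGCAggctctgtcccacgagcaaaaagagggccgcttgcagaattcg
*Mt1*, chr8:94178839-94179088, + strand: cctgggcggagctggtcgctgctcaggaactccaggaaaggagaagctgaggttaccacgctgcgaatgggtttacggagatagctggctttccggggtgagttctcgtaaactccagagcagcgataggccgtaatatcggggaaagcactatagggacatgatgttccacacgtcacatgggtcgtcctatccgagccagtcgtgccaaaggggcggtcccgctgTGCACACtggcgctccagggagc
*Sgk1*, chr10:21993640-21993889, + strand: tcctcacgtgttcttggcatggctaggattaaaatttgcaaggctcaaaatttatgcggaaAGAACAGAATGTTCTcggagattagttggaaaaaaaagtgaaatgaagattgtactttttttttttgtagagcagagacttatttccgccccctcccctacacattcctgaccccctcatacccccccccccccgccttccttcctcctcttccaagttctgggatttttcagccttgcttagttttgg
The *Mt2* window held 3 MRE cores, at bases 223 to 217, 128 to 122 and 50 to 44 before the start, the last on the opposite strand. The *Mt1* window held 1, at bases 23 to 17. Bases after the annotated start were not searched, so these counts hold for the windows alone. Of 32851 windows of all genes, 21.4% held at least 1 core and 1.26% held at least 3. *Mt1* and *Mt2* lie on the same strand of chromosome 8, and single cores were also found for *Hsd11b1* and *Ddit4*. Of the 6 windows of *Sgk1*, the one shown held the full 15-base glucocorticoid response element, at bases 189 to 175, which 3 of the 32851 windows held (0.00913%). The hexamer AGAACA, which the full element holds on each strand, was present in 16.1% of all windows and in 4 of the 18 of these genes, 3 of *Sgk1* and 1 of *Tsc22d3*. These matches describe letters in the windows and no binding was measured.

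The deposited values are signals, the brightness of a probe set on a linear scale after each array was scaled as a whole, with a mean of 500.0 on both arrays once the lowest and highest 2% of the signals were left out. The signal log ratio is the log2 of Tg over WT signal, and 0.3 and -0.3 are the thresholds of the study's methods. Probe sets under 98.2 on both arrays, which is the median of all signals, were left out, and a gene was read from its brightest probe set. This kept 17 of the 20 probe sets and all 10 genes. In 5260 genes with several kept probe sets, the log ratios of one gene's probe sets had a pooled SD of 0.41, which describes readings of the same pools and not mice.

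The metallothionein genes *Mt1* and *Mt2* and the cell cycle inhibitor *Cdkn1a* had the lowest signal log ratios of the 10 genes, and *Zbtb16*, a transcriptional repressor, had the highest. In all, 4 of the 10 genes were under -0.3, 2 were over 0.3 and 4 lay between. Of all 11587 genes that passed the filter, 16.9% were under -0.3 and 16.6% over 0.3. These shares also belong beside the counts of the other lists below. None of the 10 was past 2-fold in either direction, whereas 1.02% of all genes were more than 2-fold higher and 1.87% more than 2-fold lower. Their median was -0.19, against 0.02 over all genes. Read by probe set, 8 of 17 were under -0.3 and 3 over 0.3, against 21.5% and 17.8% of all 23713 probe sets that passed.

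**Figure D1:**
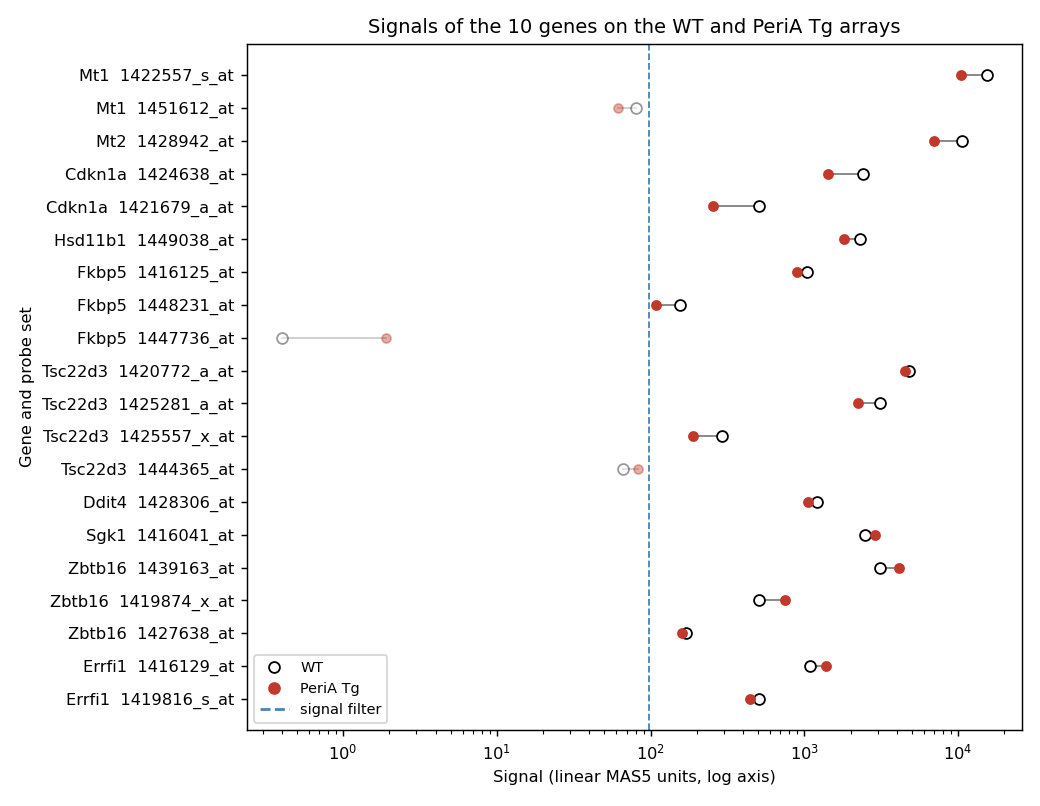
Signals on the WT array (open circles) and the PeriA Tg array (filled circles) for all 20 probe sets of the 10 genes, on a log axis in linear MAS5 units, each genotype being 1 array of pooled RNA. The dashed line is the filter at 98.2 and pale points are the 3 probe sets under it. The Tg signal lies left of WT for *Mt1*, *Mt2*, *Cdkn1a* and *Hsd11b1*, and right of it for *Sgk1* and the brighter probe sets of *Zbtb16*.

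Both metallothionein genes had bright probe sets and lower signals in Tg. For *Mt1*, the probe set 1422557_s_at had a signal of 15496 in WT against 10542 in Tg, 1.47-fold lower, with a signal log ratio of -0.56. For *Mt2*, the probe set 1428942_at had 10546 in WT against 6942.5 in Tg, 1.52-fold lower (-0.60). At this brightness most probe sets were within the thresholds. Of 865 probe sets with a mean log2 signal of at least 13, those of *Mt1* and *Mt2* included, 4.16% were under -0.3 and 6.82% over 0.3. That limit was set after the values were seen. The dim second probe set of *Mt1*, 1451612_at, was under the filter, with 80.1 in WT against 61.4 in Tg. The suffix of the bright *Mt1* probe set marks probes shared by several transcripts, and since the genes are much alike, whether it also reads *Mt2* was not tested.

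Most other genes of zinc and copper handling were within the thresholds on their brightest probe sets. Of 22 listed, 18 passed the filter, of which 1 was over 0.3 and 1 under -0.3, with a median of -0.07. Other kept probe sets went past the thresholds in both directions. They had 0.81 for *Slc39a14*, 0.33 for *Atp7a*, -0.60 for *Slc39a10* and -0.84 for *Slc39a6*. *Mtf1*, which encodes the zinc-sensing factor of metallothionein genes, had 439.1 in WT against 408.0 in Tg (-0.11). *Slc30a1*, a zinc exporter that MTF1 also controls, had 952.5 in WT against 1060 in Tg (0.15). Both were thus within the thresholds. *Slc39a8*, a zinc importer, was the member over 0.3, with 1680 in WT against 2680 in Tg (0.67), although its second probe set had -0.16. *Slc31a1*, the copper importer, was under -0.3 on both of its probe sets (-0.39 and -0.56). *Slc39a13* and *Slc30a9*, zinc transporters, had -0.28 and 0.27. *Mt3* and *Mt4*, the metallothioneins of brain and squamous epithelium, had signals of at most 12.1 on both arrays, far under the filter.

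*Hsd11b1*, the enzyme that regenerates active glucocorticoid, had a single probe set (1449038_at), with 2317 in WT against 1818 in Tg, 1.27-fold lower (-0.35). This is just past the threshold. *H6pd*, which supplies the NADPH that the enzyme needs, had 3693 in WT against 3895 in Tg (0.08). *Hsd11b2*, which inactivates the hormone, was dim, with 182.6 in WT against 129.3 in Tg (-0.50).

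Of 14 genes of the glucocorticoid receptor and its helpers, 10 were read, of which 8 had a positive log ratio, 1 was over 0.3 and 2 were under -0.3. Their median was 0.20. *Nr3c1*, the receptor itself, had 3143 in WT against 3482 in Tg on its brightest probe set (0.15), while its 4 other kept probe sets extended down to -1.12. The receptor transcript therefore had no single direction across its probe sets. *Hspa8* and *Fkbp4*, a chaperone and a co-chaperone of the receptor complex, had 0.31 and 0.28, and *Stip1*, which links heat shock proteins 70 and 90, had -0.41.

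*Cdkn1a* encodes p21, an inhibitor of cyclin-dependent kinases that p53 and glucocorticoids induce, and it was the lowest of the 10 genes. Its brightest probe set, 1424638_at, had 2412 in WT against 1422 in Tg, 1.70-fold lower (-0.76). The other, 1421679_a_at, had 506.4 in WT against 254.0 in Tg, 1.99-fold lower (-0.995). Both probe sets thus went the same way, and 5.94% and 3.13% of all kept probe sets had lower log ratios. Of the relatives of p21, *Cdkn1b* had -0.05 and *Cdkn1c* had 0.33.

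Among 14 other target genes of p53 that passed the filter, 4 were under -0.3 and 1 was over 0.3, with a median of -0.10. The shares over all genes were 16.9% and 16.6%. Under -0.3 were *Gtse1* (-1.10), a dim gene of dividing cells, *Plk2* (-0.57), a kinase, *Btg2* (-0.52), an antiproliferative factor, and *Bbc3* (-0.49), an inducer of apoptosis. *Eda2r*, a receptor of the TNF family, had 0.72, at signals of 64.3 in WT against 106.2 in Tg. *Gtse1* passed the filter only through the WT array and *Eda2r* only through the Tg array, which fixes their directions. *Mdm2*, the ubiquitin ligase of p53, had -0.17 on its brightest probe set and -0.57 on the other kept one. *Trp53inp1*, *Ccng1* and *Aen* were within the thresholds on their brightest probe sets. Other kept probe sets of these genes reached down to -1.02, -0.77 and -0.58.

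*Fkbp5* and *Tsc22d3* are induced by the receptor in many cell types. *Fkbp5* encodes a co-chaperone that lowers the receptor's affinity for hormone, and *Tsc22d3* encodes GILZ, a mediator of anti-inflammatory effects. For *Fkbp5*, the brightest probe set, 1416125_at, had 1035 in WT against 902.4 in Tg (-0.20), and 1448231_at had 156.6 in WT against 108.8 in Tg (-0.53). Another, 1447736_at, had signals of 0.4 and 1.9, under the filter on both arrays. All kept probe sets of *Fkbp5* were lower in Tg, and only the dimmer was past -0.3.

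For *Tsc22d3*, the brightest probe set, 1420772_a_at, had nearly the same signal on both arrays, 4834 in WT against 4530 in Tg (-0.09). The next, 1425281_a_at, had 3117 in WT against 2233 in Tg (-0.48), and 1425557_x_at had 291.1 in WT against 188.5 in Tg (-0.63). A dim one under the filter, 1444365_at, had 65.9 in WT against 83.4 in Tg. The gene was thus between the thresholds when read from its brightest probe set and under -0.3 when read from either of the next. The suffix "a" marks probe sets that read several transcripts of a gene, and which isoforms each of them reads was not tested. The suffix of 1425557_x_at marks probes that may also bind other transcripts. Among the relatives of *Tsc22d3*, *Tsc22d1* had -0.21, *Tsc22d2* -0.20 and *Tsc22d4* 0.20 on their brightest probe sets, while other kept probe sets of these genes reached -0.83, -0.71 and -1.24. Of all 16 relatives of the 10 genes that passed the filter, 3 were over 0.3 and 2 under -0.3. *Fkbp8*, a mitochondrial FKBP, had the highest log ratio of these (0.93), from 965.4 in WT to 1834 in Tg on its only probe set, and *Fkbp1b*, which binds ryanodine receptors, had the lowest (-0.51).

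*Ddit4* encodes REDD1, an inhibitor of mTORC1 that is induced by glucocorticoids, hypoxia and energy stress. Its single probe set, 1428306_at, had 1214 in WT against 1065 in Tg (-0.19), within the thresholds. Its relative *Ddit4l* had a positive value (0.83) at low signals, 85.5 in WT against 152.2 in Tg. *Ddit4l* passed the filter only through the Tg array, which fixes its direction. Of the 12 genes of mTORC1 regulation, which include *Ddit4l*, 1 was over 0.3 and 2 were under -0.3: *Rptor* (-0.56), the scaffold of the complex, and *Tsc2* (-0.38), which restrains it. *Tsc1*, the partner of *Tsc2*, had 0.22. *Txnip*, which responds to glucose and glucocorticoids, had 0.06 on its brightest probe set and -0.76 on the other.

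*Sgk1*, a kinase related to Akt that controls ion and nutrient transport, had 2489 in WT against 2894 in Tg on its single probe set, 1416041_at. Its log ratio of 0.22 was within the thresholds, as were the negative values of *Ddit4* and of the brightest probe set of *Fkbp5*. Its relative *Sgk3* had 0.01, and *Sgk2* was under the filter.

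*Zbtb16*, which encodes the zinc finger repressor PLZF, was higher in Tg on its brighter probe sets. The brightest, 1439163_at, had 3097 in WT against 4164 in Tg, 1.34-fold higher (0.43), and 1419874_x_at had 504.4 in WT against 751.0 in Tg, 1.49-fold higher (0.57). The dimmest, 1427638_at, had 170.8 in WT against 161.0 in Tg (-0.09). The suffix "x" marks probes that may also bind other transcripts, and the brightest probe set has no such mark.

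*Errfi1* encodes MIG6, a feedback inhibitor of the EGF receptor, and its probe sets pointed in opposite directions. The brighter, 1416129_at, had 1094 in WT against 1393 in Tg, 1.27-fold higher (0.35), and 1419816_s_at had 504.2 in WT against 441.3 in Tg (-0.19). The suffix "s" of the dimmer marks probes shared by several transcripts, and which transcripts it reads was not tested. The gene is counted over 0.3 by the brighter alone. Of 9 genes of EGF receptor signalling that passed the filter, 3 were over 0.3 and 1 under -0.3, against 16.6% and 16.9% of all genes. *Hbegf*, a ligand, was lower on both of its probe sets (-0.83 and -0.40), and *Erbb3*, a receptor without strong kinase activity, had 0.48. *Spry4* and *Spry2*, inhibitors of the pathway, had 0.45 and 0.33, and *Egfr* had -0.21 on its brightest probe set, the highest of 4 kept probe sets that reached down to -1.87.

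**Figure D2:**
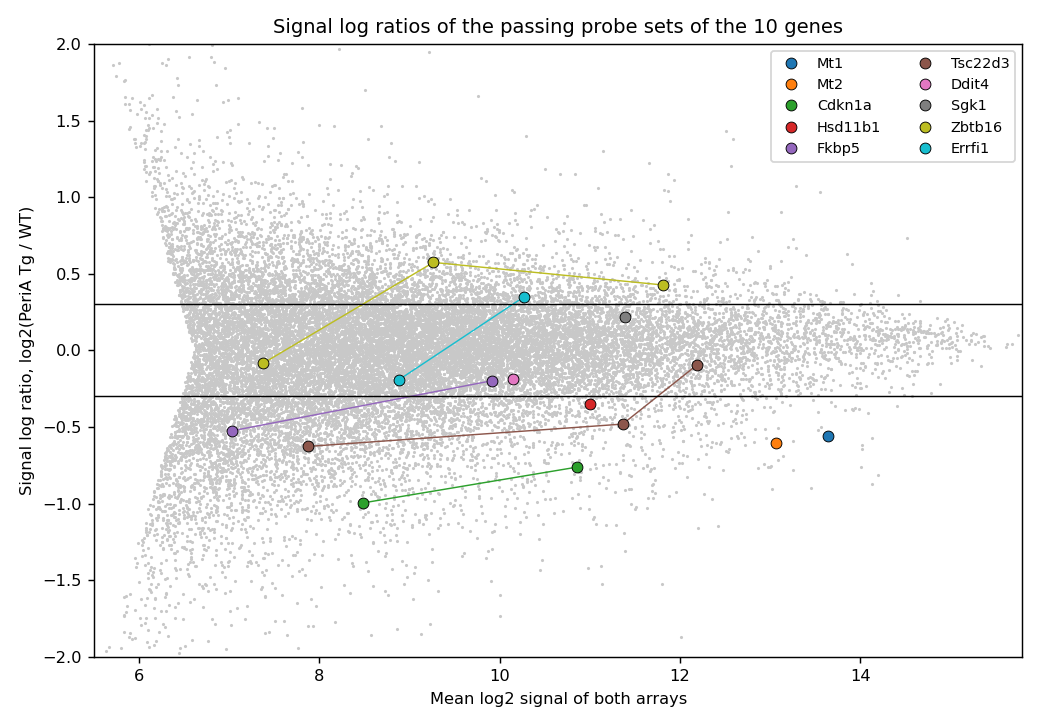
Signal log ratios (log2 of Tg over WT) plotted by mean log2 signal for the 17 kept probe sets of the 10 genes (coloured, lines join probe sets of one gene) and all 23713 kept probe sets (grey). Lines mark 0.3 and -0.3, and 135 grey points lie outside the drawn range. *Mt1* and *Mt2* lie below nearly all probe sets of similar brightness, whereas *Cdkn1a* lies below -0.7 on both of its probe sets.

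In the 5 genes with several kept probe sets, the dimmer probe set had a lower log ratio than the brightest in 6 of 7 pairs, with a median difference of -0.39. Over all genes this difference had a median of -0.08, and it was negative in 59.3% of 8796 pairs. The exception was the x-marked probe set of *Zbtb16*. A measure of RNA labelling also differed between the arrays. Each of the 4 bacterial poly-A controls is listed with 2 pairs of probe sets that are not independent. In every pair the log ratio of the 5′ probe set was below that of its 3′ partner, with a median difference of -0.55. For the hybridization controls the median was -0.005, and for the mouse transcripts *Actb* and *Gapdh* the difference was -0.25 and -0.33. Where the probe sets of *Tsc22d3*, *Fkbp5* and *Errfi1* lie along the transcripts was not known. The part of labelling in their values was not tested. *Mt1* and *Mt2* rest on 1 kept probe set each.

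Of 24 other genes that glucocorticoids are known to induce, 23 passed the filter. Of these, 7 were over 0.3 and 2 under -0.3, against 16.6% and 16.9% of all genes. Their median was 0.18, and 15 had a positive value. That median depended on the probe sets read: it was 0.08 on the median of the kept probe sets and 0.02 over 14 genes on second-brightest probe sets. *Klf15*, a transcription factor of amino acid and lipid metabolism, had 1028 in WT against 1486 in Tg (0.53). *Lpin1*, a phosphatidate phosphatase, had 5822 in WT against 8395 in Tg, and its probe sets had 0.53 and 0.54. The other genes over 0.3 were *Pdk4* (0.46), which inhibits pyruvate dehydrogenase, *Pck1* (0.45), an enzyme of glyceroneogenesis, *Tiparp* (0.39), an ADP-ribosyltransferase, and the transcription factors *Klf9* (0.33) and *Cebpd* (0.32). For *Pck1*, *Tiparp*, *Cebpd* and *Klf9*, another kept probe set was negative, at -0.80, -0.31, -0.20 and -0.02. *Per1*, a clock gene, had 0.27.

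The members of this list under -0.3 both encode secreted acute phase proteins. *Serpina3n*, a protease inhibitor, had 5998 in WT against 3671 in Tg (-0.71). *Lcn2*, which binds iron-carrying siderophores, was dim, with 134.4 in WT against 58.8 in Tg (-1.19). It passed the filter only through the WT array, which fixes its direction. The glucocorticoid-induced genes thus had no common direction. *Klf15*, *Lpin1* and the brighter probe sets of *Zbtb16* were higher in Tg, and *Cdkn1a*, *Serpina3n*, *Mt1* and *Mt2* were lower. *Sgk1*, *Ddit4* and the brightest probe sets of *Fkbp5* and *Tsc22d3* were within the thresholds.

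**Figure D3:**
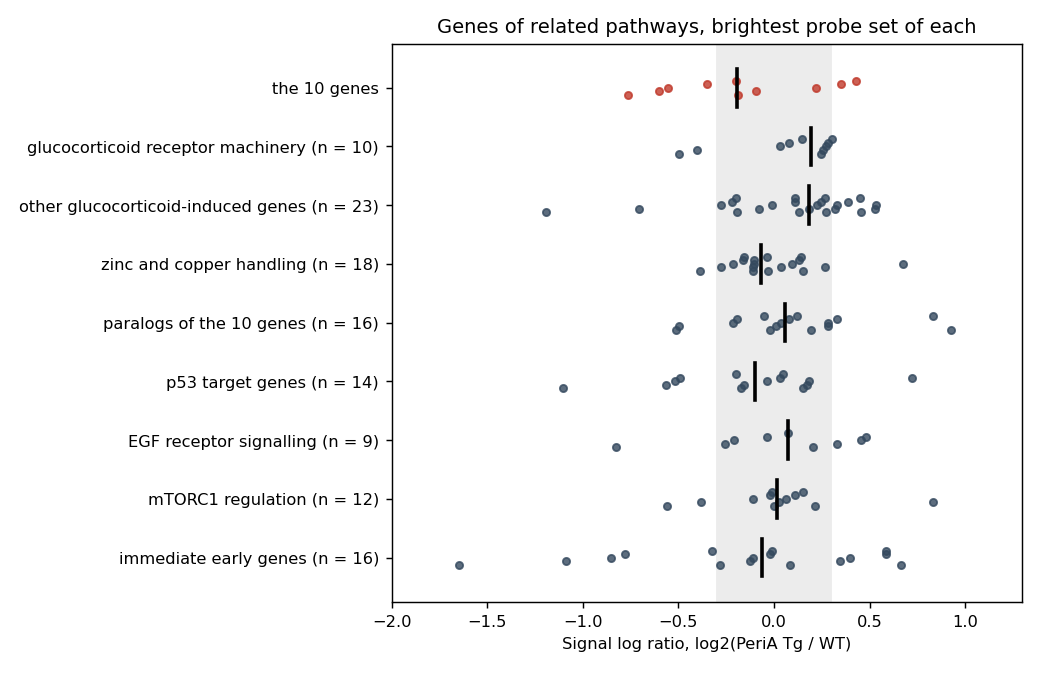
Signal log ratios of the 10 genes (red) and of the genes of 8 related lists that passed the filter (dark), 1 point per gene on its brightest probe set, each genotype being 1 array of pooled RNA. Black bars are medians, the grey band spans the values within the thresholds, and points of a list are spread vertically for legibility. The median is -0.19 for the 10 genes and 0.18 for other glucocorticoid-induced genes.

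Immediate early genes, which respond within minutes to handling, growth factors and stress, were spread widely. Of 16 that passed the filter, 5 were over 0.3 and 5 under -0.3, against 16.6% and 16.9% of all genes, with a median of -0.06. *Egr2* had 382.7 in WT against 122.2 in Tg (-1.65), *Atf3* had 842.1 in WT against 396.7 in Tg (-1.09), and *Fos* had 2003 in WT against 1107 in Tg (-0.86). *Egr3* had -0.78. Of those higher in Tg, *Hspa1b*, a heat shock protein, had 0.66, against -0.11 for the near-identical *Hspa1a*, and *Jund* and *Ier3* both had 0.59. How the dissection of each mouse bears on *Cdkn1a*, *Errfi1* and the metallothioneins was not tested.

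The tissue is a mixture of cells, and in pooled bulk RNA fewer cells of a type and less RNA per cell cannot be told apart. Adipocyte markers, which the labelled tissue should hold, were far above the filter: *Adipoq* had 41052 in WT against 43803 in Tg, and 8 of 11 mature adipocyte markers were within the thresholds, with a median of 0.09. *Lep*, the hormone leptin, was the marker under -0.3 (-0.64). Macrophage markers were lower in Tg beside *Mt1*, *Mt2* and *Cdkn1a*. Of 12, all above the filter, 6 were under -0.3 and none over 0.3, against 16.9% and 16.6% of all genes. Their median was -0.33, with summed signals of 51305 in WT against 42009 in Tg. *Itgax* and *Cd68*, which mark inflammatory macrophages and lysosome-rich phagocytes, had -1.35 and -1.13, while *Mrc1* and *Cd163*, of resident macrophages, had -0.004 and 0.10. The neutrophil genes *S100a8* and *S100a9* had -1.44 and -0.79, in a list of 6 with mast cell genes that had a median of -0.02. *S100a9* passed only through the WT array, which fixes its direction. Summed signals of 8 endothelial markers were 7012 in WT against 6716 in Tg, with a median of -0.06, and 8 fibroblast and preadipocyte markers had a median of -0.01. Medians were 0.25 for 6 mesothelial markers, -0.26 for 6 of smooth muscle and pericytes, -0.21 for 5 of T and NK cells, and -0.34 for 3 B cell markers. Among the T and NK markers, *Cd8a* (-0.85) passed only through the WT array, which fixes its direction. Of 6 skeletal muscle markers, 3 passed. *Mylpf* and *Tnni2* passed only through the WT array, which fixes their direction, and *Acta1*, above the filter on both arrays, had -0.03. Summed signals of 8 brown adipocyte markers were 4986 in WT against 25115 in Tg, and *Dio2* and *Elovl3* among them passed only through the Tg array. The part of these cell types in the values of the 10 genes was not tested.

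**Figure D4:**
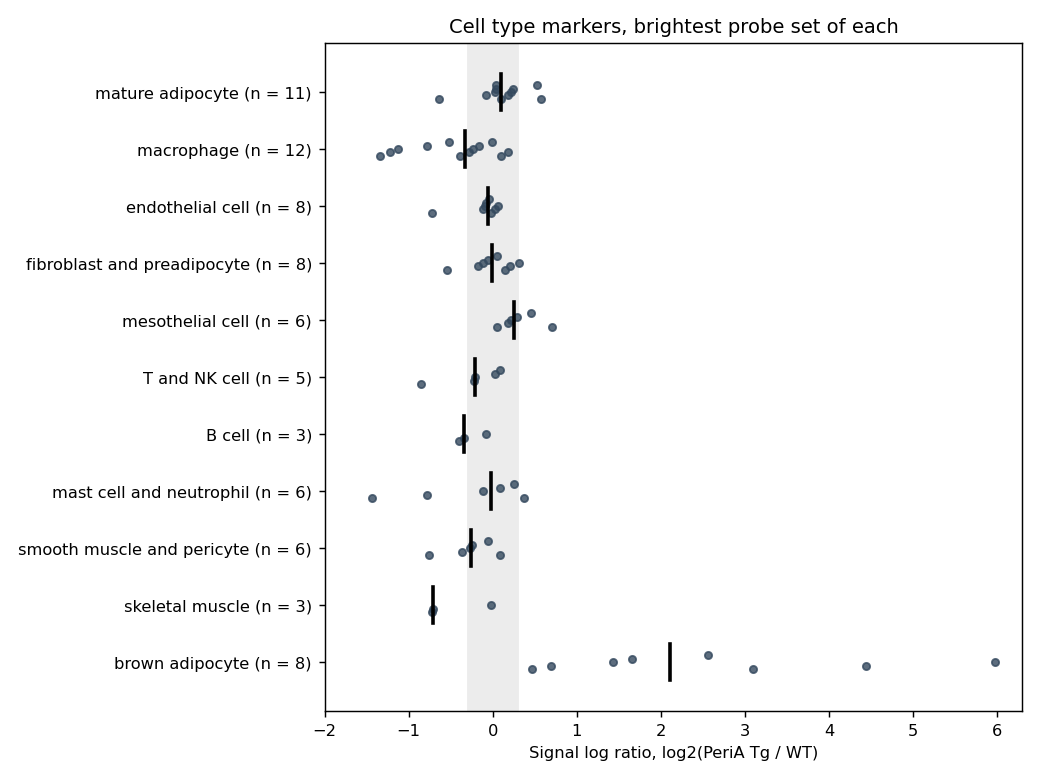
Signal log ratios of cell type markers that passed the filter, 1 point per gene on its brightest probe set, each genotype being 1 array of pooled RNA. Black bars are medians, the grey band spans the values within the thresholds, and points of a list are spread vertically for legibility. Macrophage markers extend to the left of the band (median -0.33) and brown adipocyte markers lie to the right of it, up to *Ucp1* at 5.98. The skeletal muscle bar is the median of 3 genes, of which *Mylpf* and *Tnni2* passed through the WT array alone and *Acta1* through both.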

How the data were processed

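Total RNA from perigonadal WAT was pooled from 3 mice per genotype and hybridized to 1 array each. Per the study's methods, the authors obtained the deposited intensity values from GeneChip Operating Software ver1.4. The algorithm is MAS5 in the submitters' processing notes, in which mismatch probes correct the perfect-match probes of each set and every array gets 1 scaling factor. A ratio of low signals is therefore unstable. The authors' Present calls were not used here. The deposited table holds 45101 probe sets, of which 64 are controls.

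Genotypes came from the labels. Gene names came from the platform annotation: 34945 probe sets had 1 symbol, 932 had several and 9160 were not listed, and those with several or none named no gene. A gene was read from the probe set with the highest mean log2 signal, and no pseudocount was added to the log2 ratio. With 1 array per group no test is possible, and the number of arrays limits the precision.

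The 10 genes, the lists, the thresholds and the alternatives were chosen with earlier results of these data known. The rule for named genes took every probe set of the 10 genes, up to 4 kept genes of each list with the largest absolute log ratio, and *Nr3c1*, *Hsd11b2*, *H6pd*, *Per1*, *Klf9*, *Klf15*, *Mtf1*, *Slc30a1*, *Mt3*, *Mt4*, *Txnip*, *Egfr* and *Mdm2*. Other genes were named after their values were seen. Alternatives were median centring, quantile normalization, loess (span 0.3), a pseudocount of 25.1, a floor of 56.9, no filter, a filter at 470.5, other probe sets of a gene, rounding to 1 decimal and a 2-fold threshold. The calculation was checked on simulated data, with shifts past the threshold planted in bright probe sets and little noise. That check covers the arithmetic and not values near the thresholds. Software was Python 3.11.15 (pandas 2.3.3, numpy 2.4.6, statsmodels 0.14.6, scipy 1.17.1, matplotlib 3.10.9).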

Additional observations from a re-analysis of the deposited data

How the results depend on the processing

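The values of *Mt1*, *Mt2*, *Cdkn1a* and *Zbtb16* kept their direction and their side of 0.3 or -0.3 under every alternative that could be computed for them. They ranged from -0.61 to -0.55 for *Mt1*, -0.65 to -0.60 for *Mt2*, -0.995 to -0.75 for *Cdkn1a* and 0.40 to 0.57 for *Zbtb16*. With 1 kept probe set each, *Mt1* and *Mt2* could not be moved by the changed filters or by reading other kept probe sets. The dimmest kept probe set of *Zbtb16*, at -0.09, was not read alone in any alternative. *Hsd11b1* ranged from -0.37 to -0.30 and was at the threshold, not past it, when rounded to 1 decimal. *Fkbp5* and *Tsc22d3* were past -0.3 when read from the second-brightest probe set or from the median of the kept probe sets. *Errfi1* turned to -0.19 on its second-brightest probe set, had 0.08 on the median of its kept probe sets, and was at the threshold when rounded. Median centring, quantile normalization and loess moved none of the 10 genes across a threshold.

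With 2 genes over 0.3 as deposited, 1 was over it on the median of the kept probe sets, 1 of 5 on second-brightest probe sets and 1 after rounding. With 4 genes under -0.3 as deposited, 6 were under it on the median of the kept probe sets. The median of the 10 genes went from -0.19 to -0.36 on that reading, and was -0.48 over the 5 genes with a second-brightest probe set. Without the filter, 5 probe sets were over 0.3, in place of 3. At 2-fold, 0 genes and 0 probe sets were past the threshold in either direction. On second-brightest probe sets, the median was -0.55 for 6 p53 target genes and -0.51 for 4 immediate early genes. The spread against which these medians were judged is that between probe sets of one gene. No paired analysis was possible because each genotype has 1 array. Signals near the filter, as for *Lcn2*, *Eda2r* and *Ddit4l*, limit what their ratios show.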
